A study of Homo sapiens with 12 samples.

Results

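The comparison described here is of VCaP cells that received an ERG shRNA against VCaP cells that received a scramble shRNA. It holds 4 of the 12 arrays of the series, the 2 arrays labelled ERG shRNA and the 2 labelled scramble shRNA, and all 21833 probes with a gene symbol, which stand for 16922 genes. VCaP is a cell line from a metastasis of prostate cancer, driven by the androgen receptor, that carries a TMPRSS2-ERG gene fusion. Both groups were grown in RPMI medium, were given their shRNA by lentivirus and were selected with puromycin before total RNA was taken. They differ in the shRNA named by the label, and its target sequence was not used here. The titles call the scramble shRNA stable and do not use that word for the ERG knockdown. The other 8 arrays of the study measure RWPE1, an immortalised prostate epithelial line, with GFP-ERG or GFP.

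ERG belongs to the ETS transcription factors, which bind DNA sites built around the letters GGAA. ERG is normally made in endothelial and some blood-forming cells. In prostate cancers with the fusion, the androgen-driven TMPRSS2 promoter switches it on in luminal epithelial cells. An shRNA is processed by the cell into a short RNA that guides cleavage of a matching mRNA.

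Levels are log2 signals of an Illumina bead array, as deposited. They run from 7.44 to 15.4 with a median of 7.75 over all probes, so that many probes lie close to the bottom of the scale, where differences read smaller than the change in RNA behind them. Precision is limited by the number of arrays, 2 in each group. The labels do not say what separates the arrays of a group, so p-values measure only the spread between these arrays, which may be technical. The arrays labelled ERG shRNA differed more from each other than the scramble arrays did. The SD over genes of the difference between arrays was 0.24 for ERG shRNA and 0.12 for scramble, and 115 genes in the ERG shRNA pair and 4 in the scramble pair differed by over 1 log2 unit. All 9 measured genes of a list that defines VCaP (KLK2, KLK3, TMPRSS2, FOXA1, HOXB13, FOLH1, KRT8, KRT18 and ERG) had a mean level no lower than that median. Of markers of other cell types, 2 of 8 basal prostate genes, 3 of 12 fibroblast genes, 3 of 12 endothelial genes and 1 of 12 leukocyte genes did so, and none of these markers passed the test used here for differences.

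ERG itself was examined first. Its brightest probe, for the transcript NM_182918, had log2 signals of 8.71 and 8.77 with ERG shRNA, against 8.35 and 8.33 in the scramble arrays. Both arrays labelled ERG shRNA lay above both scramble arrays. The difference for ERG was 0.40 log2 units (SE 0.04), with an adjusted p = 0.0413 in limma after Benjamini-Hochberg adjustment across genes. The ERG probe for NM_004449 read 7.60 and 7.63 with ERG shRNA and 7.66 and 7.60 with scramble, and a further ERG probe for NM_182918 read 7.50 and 7.55 with ERG shRNA and 7.55 and 7.56 with scramble. These probes were as dim as most of the array. At none of the 3 probes was ERG called lower in the arrays labelled ERG shRNA. Whether these probes read the transcript of the gene fusion was not tested, so they do not settle whether it was lowered. Every direction given here refers to the label.

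Across all genes, the changes were few in number by the test and uneven in size. In the arrays labelled ERG shRNA, 284 genes were higher (1.68% of 16922) and 307 were lower (1.81%) at an adjusted p under 0.05 (limma, Benjamini-Hochberg), 591 or 3.49% in all. The lower genes moved farther. Their median change was 0.99 log2 units against 0.63 for the higher genes, and 151 lower genes (0.892%) but 40 higher genes (0.236%) changed by at least 1 log2 unit. In this limma fit the smallest Benjamini-Hochberg adjusted p was 0.0231, and an unadjusted p under 0.05 was found for 3651 genes. Groups of 2 arrays often separate without passing the test, since the arrays of 8930 genes (52.8%) did not overlap, and those of 6050 of the 9400 genes at or above the median level (64.4%). The count depends on the arrays. Without ERG shRNA array 1, 1176 genes were higher and 1078 lower, and without ERG shRNA array 2, 542 were higher and 640 lower. Without scramble array 1 or scramble array 2, limma called 0 genes in either direction, with 2251 and 1913 genes at an unadjusted p under 0.05. Each of these fits takes the lone array left in a group to vary like the other group.

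Calls were spread unevenly over expression levels. Below a mean level of 8, where 9377 genes lie, 8 genes were higher and 18 lower with ERG shRNA. IFITM3, an antiviral membrane protein of the interferon response, was the most lowered of them, at 7.56 and 7.56 with ERG shRNA against 8.29 and 8.46 with scramble. PPARG, a nuclear receptor of lipid metabolism, was among the 3 most raised there, at 8.26 and 8.20 with ERG shRNA against 7.76 and 7.70 with scramble. Each of these genes was thus near the bottom of the scale in one group and above it in the other. The called share increased to 6.58% higher and 6.76% lower among the 547 genes at 11 to 12, and stood at 5.26% in each direction among the 171 genes at 13 and more. In that brightest class the cell cycle gene CCND1 and the metalloreductase STEAP2 were among the 3 most raised, by 1.08 and 1.05 log2 units. COX7A2 and COX8A, both subunits of cytochrome c oxidase, were the most lowered named genes there, by -1.40 and -1.32. The difference between the arrays also widened with level. Its SD was 0.06 for the ERG shRNA pair and 0.05 for the scramble pair below a level of 8, and 0.52 for the ERG shRNA pair and 0.18 for the scramble pair at 13 and more.

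**Figure D1:**
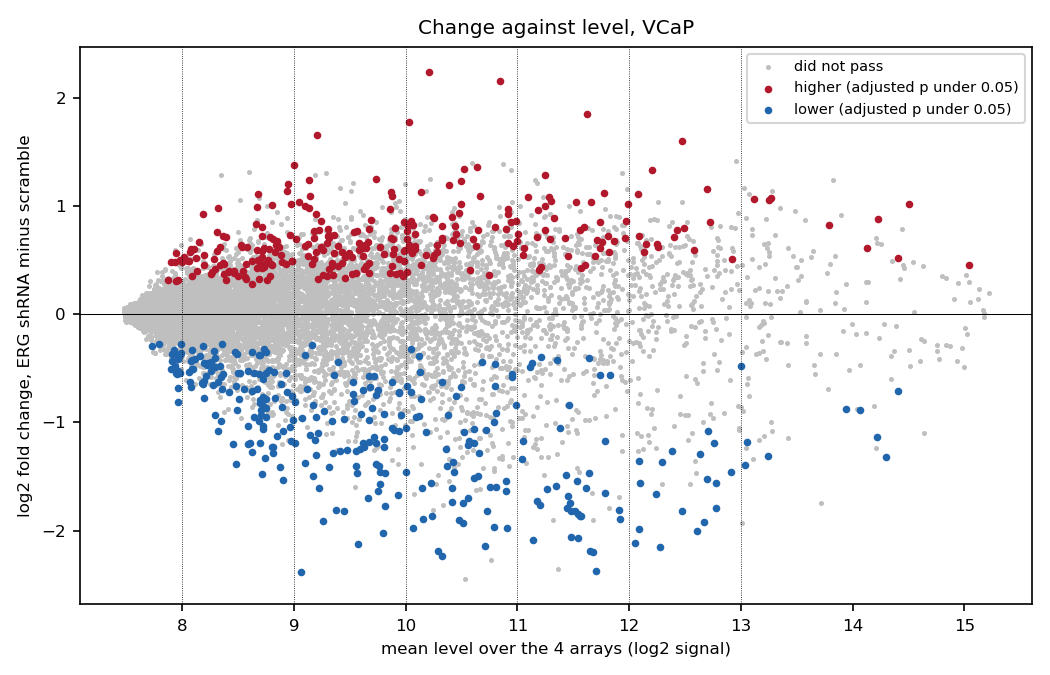
Log2 fold change (ERG shRNA minus scramble) of 16922 genes against their mean level over the 4 VCaP arrays (log2 signal). Red points are the 284 genes that passed the test as higher with ERG shRNA, blue points the 307 that passed as lower, grey points all others, and dotted lines mark the level classes. Lower genes reach -2.38 and higher genes 2.23.

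The clearest group among the higher genes was the machinery of regulated secretion, by which neuroendocrine cells and neurons store hormones and transmitters in vesicles and release them on a signal. Of 27 measured genes on this list, 7 passed as higher and 0 as lower (25.9% higher, against 1.68% of all genes), and the list's median change was 0.39 log2 units against 0.00 over all genes. SYT4, a vesicle membrane protein of the synaptotagmin family, read 11.32 and 11.34 with ERG shRNA, against 9.18 and 9.01 with scramble. CHGA, the granule protein chromogranin A, read 10.93 and 10.90 with ERG shRNA, against 9.19 and 9.10 with scramble. For both genes the 2 arrays of each group lay within 0.17 log2 units of each other and the groups were far apart. The change was 2.23 for SYT4 (SE 0.07) and 1.77 for CHGA (SE 0.04), each with limma's adjusted p = 0.0231 after Benjamini-Hochberg adjustment.

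The other members that passed act in granule formation and in vesicle fusion. SCG3, a granin that helps to sort cargo into granules, read 9.76 and 9.74 with ERG shRNA against 8.54 and 8.49 with scramble. CADPS, which primes granules for release, read 9.93 and 10.13 with ERG shRNA against 8.46 and 8.29 with scramble. SNAP25, a SNARE protein of the plasma membrane, read 9.71 and 9.65 with ERG shRNA against 8.37 and 8.26 with scramble. In these 3 genes the ERG shRNA arrays differed by at most 0.20, and neither overlapped a scramble array. NAPB, an adaptor that lets the fused SNARE complex be taken apart, changed by 1.36 log2 units. SYP, the vesicle protein synaptophysin, was the smallest of the 7 with 0.62. Each array gave this list a similar shift, a median of 0.43 above the scramble mean in ERG shRNA array 1 and 0.48 in array 2. Without array 1, 13 of the 27 genes passed as higher and 1 as lower, and without array 2, 9 and 1. In these fits 6.95% of all genes were higher and 6.37% lower without array 1, and 3.20% higher and 3.78% lower without array 2. The list of neuronal cytoskeleton and neuronal markers did not show the same shift. INA, a neurofilament-type filament protein, was the 1 of 21 that passed (4.76%, against 1.68% of all genes called higher). It read 11.13 and 11.25 with ERG shRNA against 9.79 and 9.91 with scramble, and the median of that list was 0.02.

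**Figure D2:**
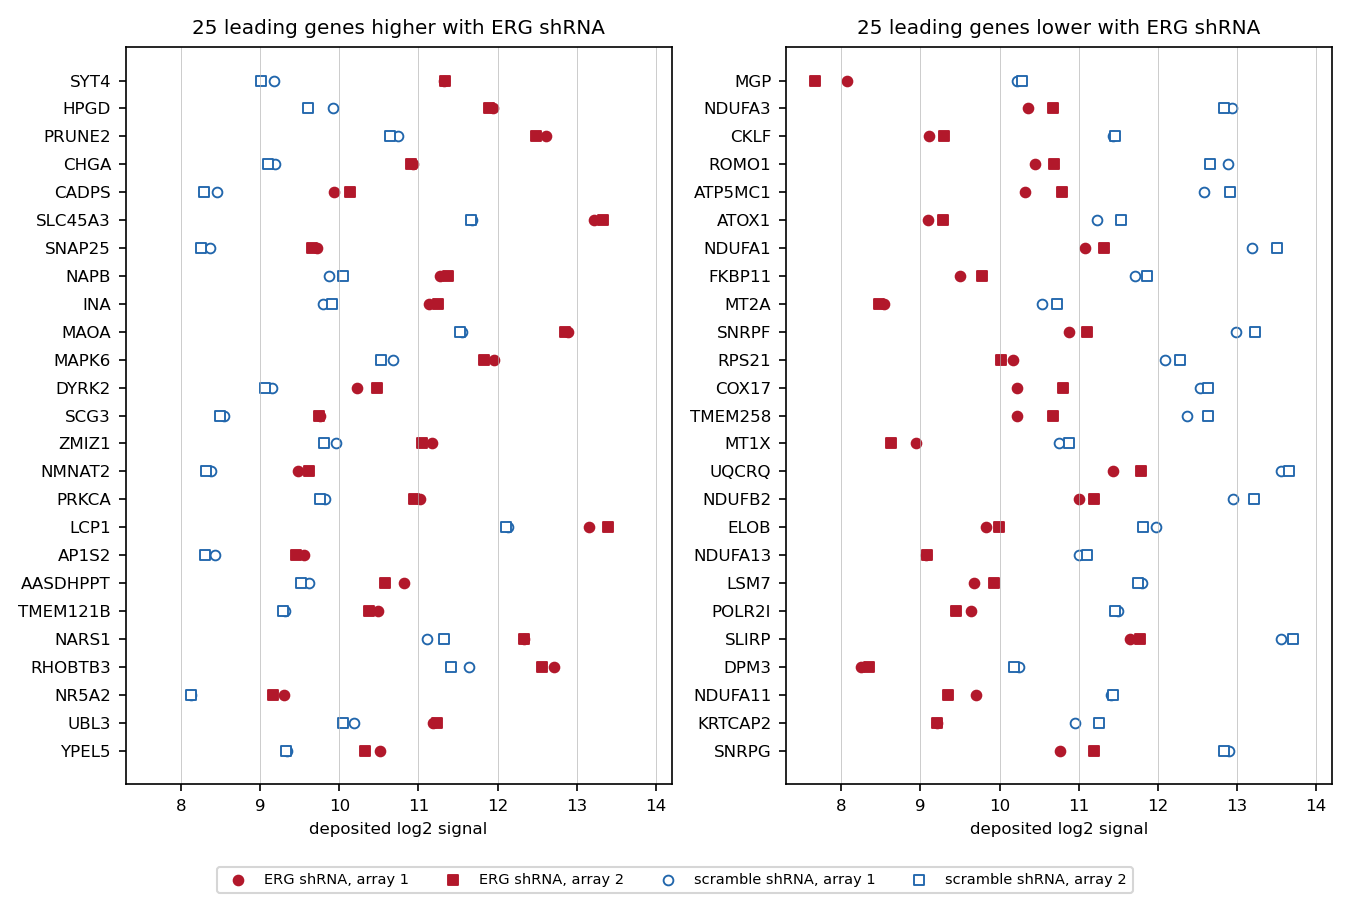
Deposited log2 signal of each array (horizontal axis) for the 25 genes with the highest and the 25 with the lowest log2 fold change among genes that passed the test. Filled red symbols are ERG shRNA arrays and open blue symbols scramble arrays, with circles for array 1 and squares for array 2. Only genes whose arrays do not overlap between the 2 groups were picked, so the separation in each row is set by the choice. SYT4 and MGP lead the panels.

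Genes that respond to androgen had calls in both directions, more of them higher. Of 27 measured, 6 passed as higher (22.2%, against 1.68% of all genes) and 2 as lower (7.41%, against 1.81%). The median change of this list was 0.21 log2 units. SLC45A3, a prostate membrane transporter that is itself a fusion partner in some tumours, read 13.22 and 13.33 with ERG shRNA against 11.68 and 11.67 with scramble. HPGD, which breaks down prostaglandins, read 11.94 and 11.90 with ERG shRNA against 9.92 and 9.61 with scramble, and MAOA, a monoamine oxidase, changed by 1.33 log2 units. STEAP2 changed by 1.05, ACP3, the prostatic acid phosphatase, by 0.88, and FKBP5, a chaperone of steroid receptors, by 0.81. The kallikrein KLK3, which encodes prostate-specific antigen, was on the other side. It read 8.40 and 8.25 with ERG shRNA against 9.02 and 9.02 with scramble, and TRPM8, a cold-sensing ion channel, was lower by -0.40 (limma, Benjamini-Hochberg, adjusted p = 0.0342). TMPRSS2, whose promoter drives the fusion, read 12.38 and 12.22 with ERG shRNA against 12.27 and 12.62 with scramble, so that its groups overlapped. Among 17 genes of luminal prostate identity, CD24, a surface protein, was the 1 that passed (5.88%, against 1.68% of all genes), with 0.82. The pioneer factor FOXA1 read 14.28 and 14.61 with ERG shRNA against 13.27 and 13.14 with scramble and did not pass (limma, Benjamini-Hochberg, adjusted p = 0.052).

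Further leading genes of the higher side have roles outside these lists. PRUNE2 read 12.61 and 12.48 with ERG shRNA against 10.75 and 10.64 with scramble. PRKCA, a protein kinase C, was higher by 1.19 log2 units, and the kinases MAPK6 and DYRK2 by 1.29 and 1.25. NMNAT2, which makes NAD in axons, was higher by 1.20, AP1S2, a subunit of a clathrin adaptor, by 1.14, and LCP1, an actin-bundling protein, by 1.15. The asparaginyl-tRNA synthetase NARS1 was higher by 1.12 and the nuclear receptor NR5A2, dim in both scramble arrays, by 1.11. In all 25 leading higher genes the ERG shRNA arrays lay within 0.255 of each other, a closeness that the test itself favours.

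Genes of mitochondrial respiration made up the largest lower group among the lists. The respiratory chain passes electrons through complexes I to IV and pumps protons, which ATP synthase uses to make ATP. With ERG shRNA, 15 of 33 complex I genes, 8 of 22 genes of complexes II to IV and 3 of 16 ATP synthase genes passed as lower, and 0 passed as higher (background 1.81% lower). The list medians were -1.08, -1.04 and -1.08 log2 units. In complex I, NDUFA3 read 10.35 and 10.67 with ERG shRNA against 12.93 and 12.83 with scramble. NDUFA1 read 11.08 and 11.32 with ERG shRNA against 13.19 and 13.51 with scramble. NDUFA13 read 9.07 and 9.09 with ERG shRNA against 11.004 and 11.10 with scramble. For these 3 accessory subunits both ERG shRNA arrays lay far below both scramble arrays.

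Complexes downstream of complex I gave similar values. UQCRQ, a small subunit of complex III, read 11.44 and 11.78 with ERG shRNA against 13.56 and 13.66 with scramble. COX6A1 and COX6B1, subunits of complex IV, were lower by -1.79 and -1.56. COX17, a copper chaperone for the assembly of complex IV, read 10.22 and 10.80 with ERG shRNA against 12.54 and 12.63 with scramble. ATP5MC1, which forms the turning ring of ATP synthase, read 10.32 and 10.79 with ERG shRNA against 12.58 and 12.92 with scramble. In each of these genes both ERG shRNA arrays lay below both scramble arrays, as in all genes called lower. Over the lists, ERG shRNA array 2 lay lower than array 1. The median of the complex I genes was -0.80 against the scramble mean in array 1 and -1.38 in array 2, that of complexes II to IV -0.73 and -1.15, and that of ATP synthase -0.57 and -1.35. Both differences share the scramble mean.

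Parts of these complexes are given in splits chosen after the values were seen, and the difference between parts was not tested. Of the 27 accessory complex I genes 15 were called lower (median -1.19), and of the 6 core genes, which carry the electrons, 0 were called in either direction (median -0.81). The core genes had medians of -0.30 in array 1 and -1.32 in array 2, and the accessory genes of -0.91 and -1.39, so that the parts were close in array 2. In ATP synthase, the 11 genes of the membrane part and stalks had a median of -1.24 and the 4 genes of the catalytic head 0.07, which lay on opposite sides of 0 in the arrays (0.28 in array 1 and -0.14 in array 2). None of 17 genes of the TCA cycle, which feeds the chain, passed in either direction (3.49% of all genes did), and their median was 0.11. CS, citrate synthase, read 12.50 and 13.01 with ERG shRNA against 12.04 and 12.24 with scramble.

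Promoters are printed for 4 of the leading lower genes, picked because they hold the full ETS site CCGGAAGT. All leading lower genes moved the same way, so the shared direction of these 4 is set by the choice. The printed promoters are RefSeq sequences of GRCh38.p14, from 250 bases before to 50 bases after the gene's start, and capitals mark the site. ROMO1 lies at chr20:35699155-35699454 on the plus strand with the site at base 191 of the sequence, COX17 at chr3:119677357-119677656 on the minus strand (base 261), UQCRQ at chr5:132866392-132866691 on the plus strand (base 197) and NDUFA13 at chr19:19515975-19516274 on the plus strand (base 241).
ROMO1: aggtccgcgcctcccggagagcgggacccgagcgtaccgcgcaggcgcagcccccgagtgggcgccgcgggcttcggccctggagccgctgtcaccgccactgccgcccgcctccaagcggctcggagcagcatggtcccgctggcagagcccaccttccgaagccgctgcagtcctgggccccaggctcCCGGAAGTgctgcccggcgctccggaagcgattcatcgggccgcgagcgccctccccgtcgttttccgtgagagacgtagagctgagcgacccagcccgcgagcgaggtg
COX17: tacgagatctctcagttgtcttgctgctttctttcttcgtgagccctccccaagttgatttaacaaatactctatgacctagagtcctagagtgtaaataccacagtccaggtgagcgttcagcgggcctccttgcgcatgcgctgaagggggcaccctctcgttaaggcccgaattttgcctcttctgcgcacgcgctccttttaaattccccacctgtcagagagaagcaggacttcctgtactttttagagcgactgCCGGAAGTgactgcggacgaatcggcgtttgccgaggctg
UQCRQ: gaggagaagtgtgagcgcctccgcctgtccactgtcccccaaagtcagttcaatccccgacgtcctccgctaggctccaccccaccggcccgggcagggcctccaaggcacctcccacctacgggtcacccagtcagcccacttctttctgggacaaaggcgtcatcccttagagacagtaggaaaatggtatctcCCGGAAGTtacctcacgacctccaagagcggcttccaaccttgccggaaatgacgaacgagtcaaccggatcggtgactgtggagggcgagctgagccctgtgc
NDUFA13: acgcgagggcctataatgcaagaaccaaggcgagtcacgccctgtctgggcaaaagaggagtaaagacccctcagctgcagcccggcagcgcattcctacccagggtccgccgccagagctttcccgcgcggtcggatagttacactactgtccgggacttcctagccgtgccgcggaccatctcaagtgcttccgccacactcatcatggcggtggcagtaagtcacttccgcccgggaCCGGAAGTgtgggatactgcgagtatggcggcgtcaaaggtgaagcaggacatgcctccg
The site was searched on both strands as CCGGAAGT, and its part CCGGAA and core GGAA were searched too, so that every longer match also counts as a shorter one. Of the 50 leading genes, 6 held it, 1 on the higher and 5 on the lower side. It was present in 24 of 240 promoters of called higher genes (10%) and 19 of 270 of called lower genes (7.04%), against 9.32% of 7850 promoters of genes at or above the median level and 6.51% of all 13567. CCGGAA was present in 25.8% of promoters of higher and 28.9% of lower genes, against 30.5% at or above the median level. GGAA was in 94.6%, 96.7% and 95.2%. The set at or above the median level holds the called genes too and is not matched to them for level, and a match is not evidence of binding.

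In other parts of the mitochondrion, ROMO1, a small inner membrane protein, read 10.45 and 10.69 with ERG shRNA against 12.89 and 12.66 with scramble. It is 1 of 5 of the 24 measured import genes that passed as lower (20.8%, against 1.81% of all genes). The others were PAM16, TIMM10, the chaperonin HSPE1 and TIMM8B at -1.41, -1.19, -1.09 and -0.62 log2 units. TOMM70, a large receptor on the outer membrane, passed as higher with 0.85, at 12.15 and 12.18 with ERG shRNA against 11.37 and 11.27 with scramble. Of 76 mitochondrial ribosomal genes, 10 passed as lower (13.2%) and 0 as higher, and their median was -0.49. MRPL23 was lower by -1.87, MRPS24 by -1.75, MRPL41 by -1.60, MRPL33 by -1.54 and MRPL14 by -1.49. In 72 of the 76 genes ERG shRNA array 1 lay above array 2, against 4557 of the 9400 genes at or above the median level. Without array 1, 42 of them passed as lower (6.37% of all genes), and without array 2, 23 (3.78% of all genes). SLIRP, an RNA-binding protein that steadies mitochondrial mRNA, was among the 25 leading lower genes, with a change of -1.92.

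The spliceosome, which removes introns, moved both ways. Of 40 genes, 5 passed as lower (12.5%, against 1.81% of all genes) and 3 as higher (7.5%, against 1.68%). SNRPF, a subunit of the Sm ring that sits on the spliceosomal small nuclear RNAs, read 10.88 and 11.10 with ERG shRNA against 12.99 and 13.23 with scramble. SNRPG and SNRPD2, of the same ring, were lower by -1.89 and -0.89 log2 units, and LSM7 and LSM2, of the related ring on U6 RNA, by -1.97 and -1.37. A further Sm gene, SNRPD1, was higher by 0.27. SF3B1, the branch-site subunit that is mutated in some cancers, read 11.37 and 11.29 with ERG shRNA against 10.64 and 10.68 with scramble, and the helicase SNRNP200 read 9.02 and 9.05 with ERG shRNA against 8.41 and 8.45 with scramble. Both arrays of each group agree on the direction for each of these genes, as in all called genes. In a split chosen after the values were seen, the 15 genes of the Sm and LSm rings had a median of -0.71 and the 14 genes of the SF3A, SF3B, PRPF and helicase scaffold one of 0.39.

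Other multi-subunit machines held small counts of calls, given here beside the 1.68% of all genes called higher and 1.81% called lower. Among RNA polymerase II subunits, POLR2I and POLR2F were the 2 of 11 that passed (18.2%), lower by -1.93 and -1.51. In cullin ubiquitin ligases, the adaptor ELOB read 9.83 and 9.999 with ERG shRNA against 11.97 and 11.82 with scramble, while the scaffold CUL4A was higher by 0.49. The 6 cullin scaffolds had a median of 0.42 and the 5 small partners one of -1.27, again a split made after the values were seen. Of 36 proteasome genes, 4 passed as lower (11.1%) and 0 as higher. The interferon-inducible catalytic subunit PSMB10 led them with -1.61, ahead of PSMB3, PSMB6 and PSME2 at -1.28, -1.07 and -0.99. Of 49 chromatin regulators, 2 passed as higher (4.08%, against 3.02% of all genes at or above the median level) and 0 as lower, the histone methyltransferase KMT2C with 0.61 and BRWD1 with 0.82, and the median was 0.16.

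Cytosolic ribosomal protein genes were lower in 7 of 68 (10.3%, against 1.81% of all genes) and higher in 0 by the test, with a median of -0.34. RPS21 read 10.17 and 10.02 with ERG shRNA against 12.09 and 12.28 with scramble. RPL36 was lower by -1.46 log2 units, RPL35A by -1.13, RPL39 by -0.87 and RPS15A by -0.71. Many of these genes have processed pseudogenes, and a probe may read more than 1 of the copies. The list was not uniform. Its median was -0.14 in ERG shRNA array 1 and -0.62 in array 2, and without array 2, 8 of its genes passed as higher and 11 as lower, against 3.20% and 3.78% of all genes. Among 37 translation factors, EEF2, the elongation factor that moves the ribosome, passed as higher with 1.01 and the helicase EIF4A2 with 0.61, and 0 passed as lower. These 2 were 5.41% of the list, against 1.68% of all genes and 3.02% of those at or above the median level.

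Metallothioneins, small cysteine-rich proteins that bind zinc and copper, were lower in 4 of 10 (40%, against 1.81% of all genes). MT2A read 8.54 and 8.48 with ERG shRNA against 10.53 and 10.73 with scramble. MT1X read 8.95 and 8.63 with ERG shRNA against 10.75 and 10.88 with scramble. MT1E and MT1F were lower by -1.47 and -1.23 log2 units. Both ERG shRNA arrays of MT1E and MT1F were close to the bottom of the scale, so that their changes may read small. Metallothionein genes are near copies of each other that a probe may not tell apart. ATOX1, a copper chaperone on the list of redox proteins, read 9.10 and 9.29 with ERG shRNA against 11.23 and 11.54 with scramble. Of that list 6 of 31 passed as lower (19.4%). Among them were thioredoxin (TXN, -1.18), PRDX1 (-1.17) and the glutathione transferases MGST2 and MGST1 (-1.82 and -1.41). The mitochondrial peroxiredoxin PRDX3 was higher by 0.60.

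In the endoplasmic reticulum, 4 of 30 genes of translocation and N-glycosylation passed as lower (13.3%, against 1.81% of all genes) and 0 as higher. In 15 of the 30 both ERG shRNA arrays lay below both scramble arrays, and in 4 above. Of the 9400 genes at or above the median level, 2605 lay below and 3445 above in this way. KRTCAP2, a subunit of the oligosaccharyltransferase that attaches sugar chains to proteins, read 9.20 and 9.21 with ERG shRNA against 10.95 and 11.26 with scramble. DAD1, of the same complex, was lower by -1.74, SSR4, of the translocon-associated complex, by -1.52, and SEC61B, of the translocation channel, by -1.49. Among leading lower genes, TMEM258, also of the oligosaccharyltransferase, changed by -2.06, FKBP11, a prolyl isomerase, by -2.14, and DPM3, which anchors the mannose donor synthase, by -1.92. The secreted stress factor MANF was the 1 of 31 heat shock and unfolded protein genes that passed, lower by -1.82. That is 3.23% of the list, against 3.26% called lower among genes at or above the median level.

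Some lower genes have roles in signalling and in the matrix. MGP, a matrix protein that keeps tissue from calcifying, read 8.08 and 7.66 with ERG shRNA against 10.22 and 10.29 with scramble, which was the largest change of a called gene (-2.38, SE 0.16, limma with Benjamini-Hochberg, adjusted p = 0.0314). CKLF, a chemokine-like factor, read 9.11 and 9.30 with ERG shRNA against 11.43 and 11.45 with scramble. FZD4, a Wnt receptor, read 8.47 and 8.42 with ERG shRNA against 9.49 and 9.50 with scramble. Its change was -1.05 (SE 0.03, limma with Benjamini-Hochberg, adjusted p = 0.0231). It was the 1 of 33 Wnt receptors and transducers that passed (3.03%). Of all genes 1.81% were called lower, and of those at or above the median level 3.26%. AXIN2, an inhibitor of Wnt signalling that the pathway itself induces, was higher by 0.48, and CCND1 was higher by 1.08. Of 34 epithelial junction genes, CGN passed as higher with 0.63 (2.94%, against 1.68% of all genes and 3.02% at or above the median level). RAB25, CLDN7 and LSR passed as lower with -1.33, -1.08 and -0.43 (8.82%, against 1.81% of all genes and 3.26% at or above that level). Of 33 interferon response genes 4 passed as lower (12.1%), IFITM3, IFITM2, IFI6 and ISG15, with -0.82 to -0.51, all dim in the ERG shRNA arrays. The hypoxia-linked genes ADM and ANKRD37 were lower by -1.03 and -0.80.

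**Figure D3:**
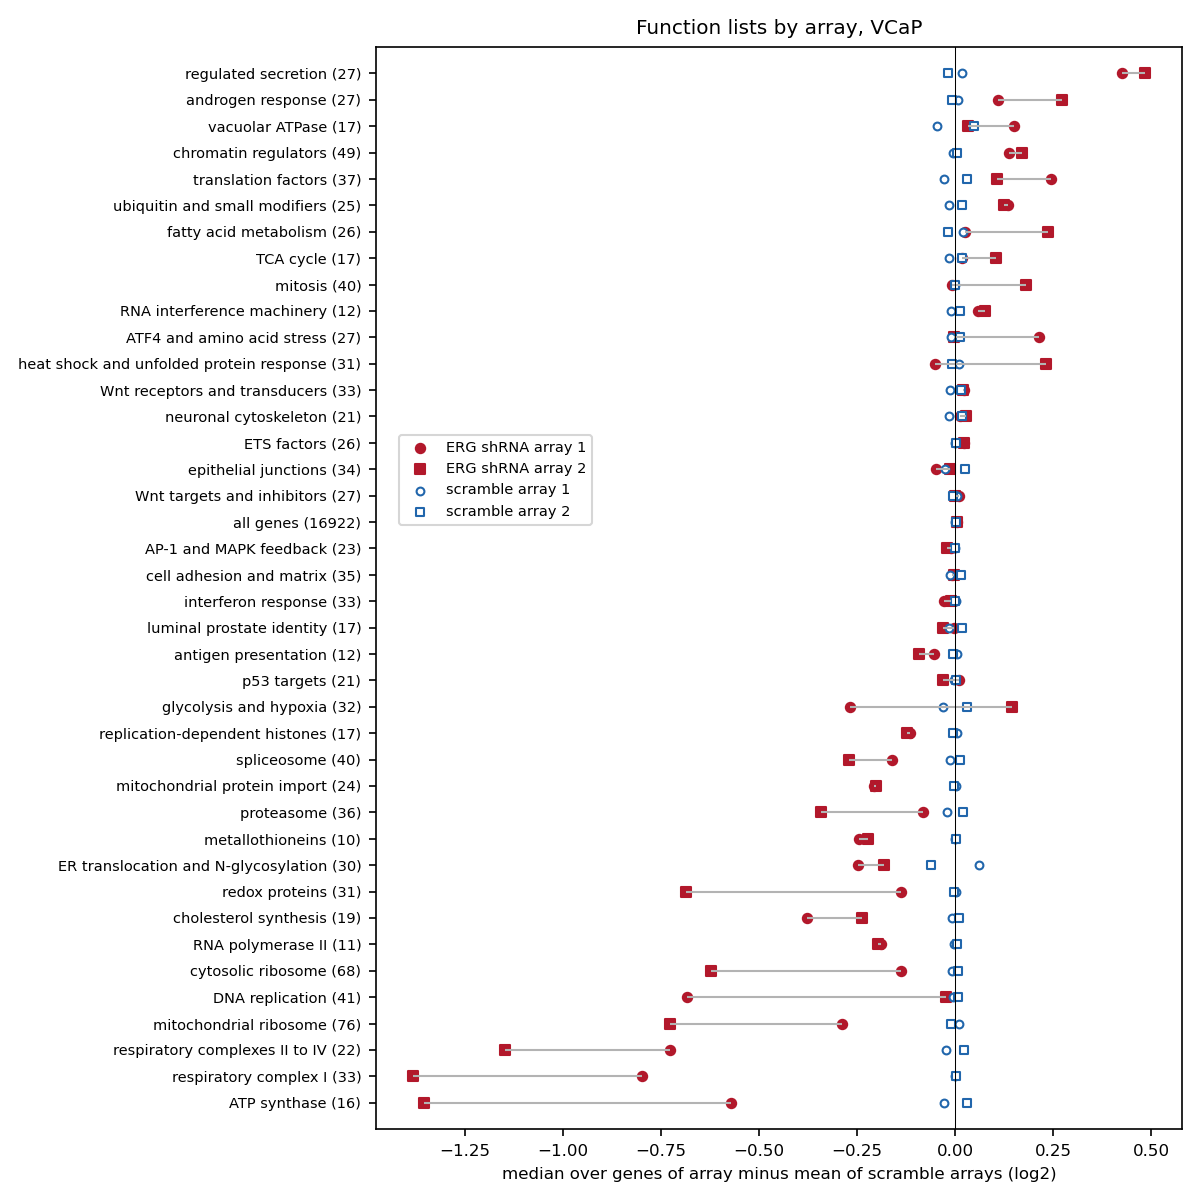
Median over the genes of each function list (number of genes in brackets) of an array's log2 signal minus the mean of the scramble arrays. Filled red symbols are ERG shRNA arrays, open blue symbols scramble arrays, and a grey line joins the 2 ERG shRNA arrays. Respiratory complex I lies farthest to the left and regulated secretion farthest to the right in both ERG shRNA arrays, DNA replication lies far to the left in array 1 alone (-0.68), and the 2 scramble arrays stay near 0.

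The direction of change went along with the length of the gene in the genome. Gene span is the distance from the first to the last base of a gene in RefSeq, introns included. Among genes at or above the median level, 55 of the 419 genes under 3 kb were called lower and 2 higher. At 300 kb and more, 1 of 311 was called lower and 19 higher. The classes between were in order for the share called higher, with 0.975% at 3 to 10 kb, 2.03% at 10 to 30 kb, 4.15% at 30 to 100 kb and 4.92% at 100 to 300 kb. Against 3.02% of all genes at or above the median level called higher and 3.26% called lower, the shortest class stood at 0.477% and 13.1%. Both ERG shRNA arrays showed it. The median of the shortest class was -0.12 in array 1 and -0.33 in array 2 against the scramble mean, and at 100 to 300 kb it was 0.10 and 0.16. The median difference between the scramble arrays, array 1 minus array 2, lay between -0.034 and 0.013 in all 6 classes.

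Span moves with several of the groups above. The median span was 56.1 kb for called higher genes and 9.69 kb for called lower genes, against 29.9 kb for all genes at or above the median level. It was 12.6 kb on the complex I list, 5.03 kb for cytosolic ribosomal genes and 1.33 kb for metallothioneins, against 47.0 kb for regulated secretion and 123 kb for chromatin regulators. Of the 25 leading lower genes, 18 span under 10 kb, with a range of 0.641 to 17.1 kb. The leading higher genes span 5.06 to 508 kb, and 2 of them, SYT4 and TMEM121B, are under 10 kb. The cytosolic ribosomal list, 59 of whose 68 genes span under 10 kb, had 10.3% called lower, between the 13.1% of the class under 3 kb and the 6.63% of the class of 3 to 10 kb. The part of gene span in the group results was not tested.

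**Figure D4:**
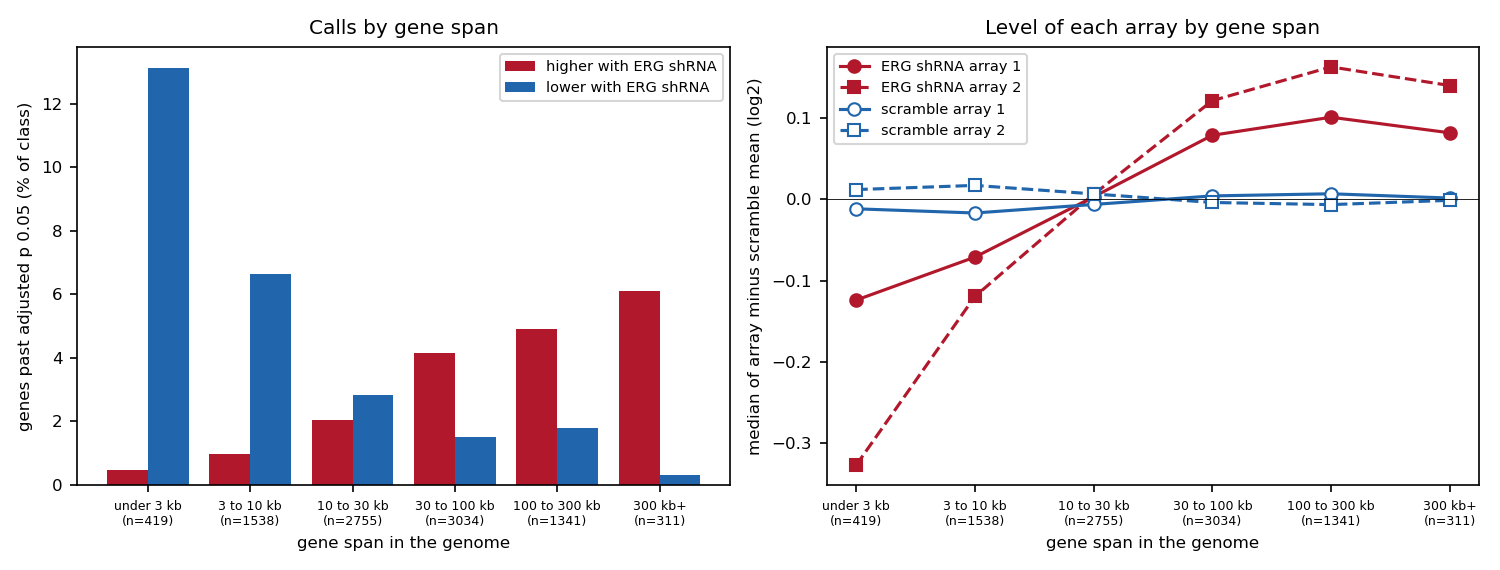
Genes at or above the median level, in classes of gene span (horizontal axis, number of genes below each class). Left, share of each class that passed the test as higher (red) or lower (blue) with ERG shRNA. Right, median over the class of each array's log2 signal minus the scramble mean, with ERG shRNA arrays as filled red and scramble arrays as open blue symbols. The share called lower is 13.1% under 3 kb and 0.322% at 300 kb and more, and the scramble arrays stay near 0 in all classes.

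The 2 arrays labelled ERG shRNA did not agree on every gene. Of 9400 genes at or above the median level, both arrays lay above the scramble mean for 4064, both below for 3185, and on opposite sides for 2151. Both differences share the scramble mean. Array 1 lay below array 2 in 4840 of the 9400 genes and above it in 4557. Genes of DNA replication, the copying of the genome in S phase, were among those that differed between the arrays. Array 1 lay more than 1 log2 unit below array 2 for 45 genes, 11 of them on the DNA replication list, and above array 2 by as much for 70 genes, 8 of them cytosolic ribosomal. None of these 115 genes passed the test of the shRNA comparison, for which a wide spread within a group counts against a call.

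In the replication genes array 1 was low and array 2 was close to the scramble arrays. CDC45, part of the helicase that opens DNA, read 9.60 and 11.52 with ERG shRNA, against 11.79 and 11.72 with scramble. MCM3, a subunit of the same helicase, read 10.71 and 12.21 with ERG shRNA against 12.04 and 12.21 with scramble. RRM2, which makes DNA building blocks, read 8.36 and 9.998 with ERG shRNA against 9.71 and 9.62 with scramble. In each of these genes array 1 was the lowest of the 4 arrays by over 1 log2 unit. MCM4, TYMS, FEN1, POLA2, TIMELESS and the transcription factor E2F2 were also 1.49 to 1.76 lower in array 1 than in array 2. Over the list of 41 genes, array 1 lay below array 2 in 37, and its median was -0.68 against -0.02 in array 2. RPA3, the smallest subunit of the single-strand binding protein, was low in both, at 9.08 and 8.90 with ERG shRNA against 10.60 and 10.52 with scramble, and was the only gene of the list called. Without array 2, 23 of the 41 passed as lower (3.78% of all genes). Without array 1, 6 passed as lower (6.37% of all genes) and 2 as higher (6.95% of all genes).

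Mitosis genes did not share this split to the same size. Of 40, none differed by over 1 log2 unit between the ERG shRNA arrays. Only 115 of all 16922 genes did, so that count alone says little. The medians of the mitosis list against the scramble mean were -0.01 in array 1 and 0.18 in array 2. Array 1 lay below array 2 in 27 of the 40, against 4840 of the 9400 genes at or above the median level. CENPF, a kinetochore protein, passed as higher with 0.59 and SPC24, also of the kinetochore, as lower with -1.12. Each was 2.5% of the list, against 3.02% higher and 3.26% lower among genes at or above the median level. Glycolysis and hypoxia genes were lower in array 1 than in array 2 in 30 of 32, with medians of -0.27 and 0.15 against the scramble mean.

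Among the largest differences with array 2 low were genes of stress responses and of translation. On the list of ATF4 and amino acid stress, which holds CEBPB, array 1 lay above array 2 in 22 of 27 genes. Its medians against the scramble mean were 0.21 in array 1 and -0.004 in array 2. The list of heat shock and unfolded protein genes went the other way. There array 1 lay below array 2 in 26 of 31, with medians of -0.05 and 0.23 against the scramble mean. GDF15, a secreted stress cytokine, read 10.03 and 8.59 with ERG shRNA against 9.78 and 9.81 with scramble. The transcription factor CEBPB read 10.87 and 9.42 with ERG shRNA against 10.43 and 10.42 with scramble. NUPR1, a small stress-induced chromatin protein, read 10.05 and 8.66 with ERG shRNA against 9.65 and 9.51 with scramble. In these 3 genes the scramble arrays lay between the 2 ERG shRNA arrays. The same held for the ribosomal gene RPL34, at 10.89 and 9.38 with ERG shRNA against 10.24 and 10.38 with scramble, and for RPL23A, at 11.55 and 10.13 with ERG shRNA against 10.98 and 10.85 with scramble. BTF3, which guides nascent chains on the ribosome, was 1.42 higher in array 1 than in array 2. Without array 2, CEBPB was higher by 0.44 (limma, Benjamini-Hochberg, adjusted p = 0.0426), and without array 1 the checkpoint kinase CHEK1 was higher by 0.39 (adjusted p = 0.0438), although both lay below the scramble mean when the 2 arrays were averaged. What separates the arrays is not given in the labels and was not tested.

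**Figure D5:**
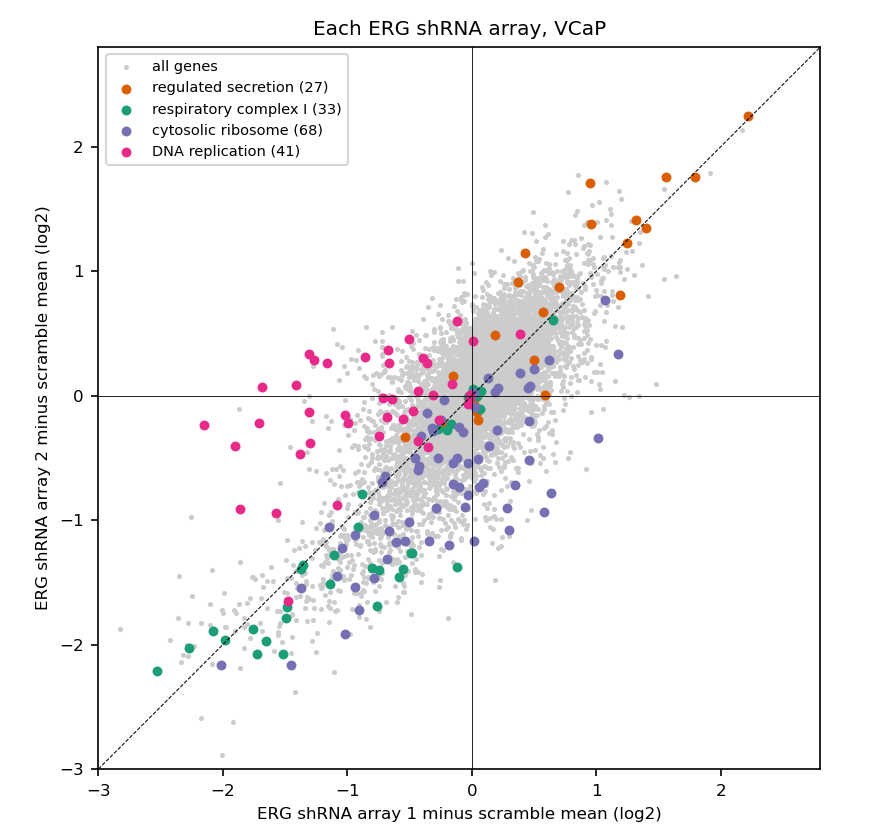
Each ERG shRNA array minus the mean of the scramble arrays (log2), array 1 on the horizontal and array 2 on the vertical axis, for all 16922 genes (grey) and 4 function lists (colours). The dashed line marks equal values. Regulated secretion genes lie near the line at the upper right, complex I genes at the lower left, DNA replication genes left of the line and many cytosolic ribosomal genes below it. Both axes share the scramble mean, so that agreement along the line is partly built in.

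Across the 39 function lists, 34 held at least 1 called gene, 21 had more lower than higher calls and 11 had more higher than lower. Counting each of the 1113 listed genes once, 36 were higher (3.23%, against 1.68% of all genes) and 95 lower (8.54%, against 1.81%). Among genes at or above the median level 3.02% were called higher and 3.26% lower, so the higher share of the listed genes was close to that level's. The lists were chosen with earlier results of these data known. With 3.49% of all genes called in either direction, 0 calls says little about a short list. None passed on the lists of TCA cycle (17 genes), antigen presentation (12), p53 targets (21), AP-1 and MAPK feedback (23), and RNA interference machinery (12). The largest values there include CALR, a chaperone of antigen presentation, at 9.63 and 10.18 with ERG shRNA against 11.20 and 11.16 with scramble, and CDKN1A, a p53 target that stops the cell cycle, at 8.41 and 8.95 with ERG shRNA against 9.31 and 9.44 with scramble. Of the RNA interference genes, AGO1 read 8.68 and 8.81 with ERG shRNA against 8.35 and 8.49 with scramble, and DICER1 read 8.09 and 8.09 with ERG shRNA against 7.86 and 7.72 with scramble. Among 26 ETS factors, ERG was the only called gene, as higher (3.85%, against 1.68% of all genes). Among 27 genes of ATF4 and amino acid stress, NARS1 and the tryptophanyl-tRNA synthetase WARS1 passed as higher (7.41%, against 3.02% at or above the median level).

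Many genes were held within narrow bounds. For 9799 genes the 95% interval of the change lay within -0.3 to 0.3, but most of these were dim, and 2325 were at or above the median level and 224 had a mean level of 9 or more. The brightest were TPT1, at 15.17 and 15.20 with ERG shRNA against 15.09 and 15.26 with scramble, and the ribosomal gene RPS25, at 15.22 and 15.10 with ERG shRNA against 15.16 and 15.22 with scramble. RPS16 and RPS19 were within the same bounds, as were HMGN1, a nucleosome-binding protein, SCARB2, a lysosomal membrane protein, and MTCH1, of the mitochondrial outer membrane. The ribosome thus held both RPS21, more than 2 log2 units lower, and RPS19, at 14.56 and 14.56 with ERG shRNA against 14.60 and 14.49 with scramble.

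Where a called gene had further probes, these mostly pointed the same way. Of 218 other probes of called genes, 185 had the same sign. Among the 131 at or above the median level 125 did, 35 of them past the threshold, and 1 probe was past it with the opposite sign. Of the 37 with a level of 9 or more, 36 had the same sign.

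The RWPE1 arrays compare ERG fused to GFP with GFP in another cell line. No ERG probe was called lower in the VCaP arrays labelled ERG shRNA. The 2 comparisons are thus set side by side by label, and both equal and opposite directions are given. Of 16251 genes measured in both tables, 1113 were higher with GFP-ERG (6.85%) and 906 lower (5.58%) as the mean of both times (limma, Benjamini-Hochberg). Of the 301 genes lower with ERG shRNA in VCaP, 43 were higher with GFP-ERG (14.3% of the VCaP genes and 3.86% of the RWPE1 genes) and 10 were lower (3.32% and 1.10%). Of the 275 higher genes in VCaP, 24 were lower with GFP-ERG (8.73% and 2.65%) and 14 were higher (5.09% and 1.26%). The difference between these counts was not tested. MGP, FZD4 and ROMO1 were among the 43, with changes of -2.38, -1.05 and -2.20 in VCaP and 0.91, 0.80 and 0.54 in RWPE1. Among the 24 were KCNK3, a potassium channel, and CADM1, an adhesion molecule, with 0.99 and 0.87 in VCaP and -0.62 and -0.61 in RWPE1. MRPS24 and COX14 were lower in both lines, with -1.75 and -1.23 in VCaP and -0.42 and -0.33 in RWPE1. For NDUFA3 and NDUFA1, strongly lower in VCaP, the RWPE1 changes were -0.08 and 0.03 and did not pass. The same held for SYT4 and CHGA, with -0.06 and 0.00.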

How the data were processed

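Per the labels' protocols, RNA extracted with Trizol was turned into biotin-carrying cRNA. Each Illumina bead array was read in 1 colour. The deposited values were read as log2 signals from their range. The authors' software, background correction and normalization were not given in the sources used here. Sorted values of the 4 deposited log2 columns differed by at most 0.0002, so they were used as deposited.

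Of 24525 probes, 21833 had 1 gene symbol in the platform annotation, none had more than 1, and 2692 were unnamed. The brightest probe by mean over the 4 arrays stood for a gene, which left 16922 genes. ERG shRNA was compared with scramble shRNA in limma version 3.58.1 (R version 4.3.3) by lmFit and eBayes without a variance trend or robust setting. P-values are 2-sided, adjusted by Benjamini-Hochberg across the genes of the table, with 0.05 as the threshold. SE are those of limma. RWPE1 was fitted separately on its 8 arrays and 16591 genes. The scripts used Python 3.11.15, pandas 2.3.3 and matplotlib 3.10.9, and the fit was tested on simulated data.

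Members, lists and splits were chosen with earlier results of these data known. Named genes are ERG, FZD4, the 25 highest and 25 lowest changes, up to 5 called members of a list in each direction (2 where none passed), the 12 largest differences each way between the ERG shRNA arrays, up to 3 called genes of a level class, 10 steady genes and up to 8 for each overlap with RWPE1. TMPRSS2, FOXA1 and some values of uncalled genes were named outside this rule, after their values were seen. Gene spans and promoters are from RefSeq, GRCh38.p14.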

Additional observations from a re-analysis of the deposited data

Results flagged for a closer look

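Probes without a gene symbol were outside the comparison by gene. In a fit of all 24525 probes (limma, Benjamini-Hochberg), 27 of the 2692 probes without a symbol were higher in the arrays labelled ERG shRNA (1.00%) and 25 were lower (0.929%). These shares lie below those of probes with a symbol in the same fit, 1.44% higher and 1.62% lower. They are given because the comparison by gene did not use these probes.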

How the results depend on the processing

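The counts of 284 higher and 307 lower genes changed with the model. A trended, robust variance gave 768 and 937, a filter on dim genes (9741 genes tested) 456 and 483, and a linear background subtraction with an offset of 16 gave 875 and 917. Weighting arrays by group (322 and 344), averaging a gene's probes (265 and 284) and testing every named probe (319 and 360) kept the counts within 1.5 times. Array numbers are shared between the groups, but the correlation of same-numbered deviations was 0.19 for a single pairing of 2, which does not show that they pair the samples. A fit with the array number as a replicate block gave 0 higher and 0 lower genes (limma, Benjamini-Hochberg), with 3612 at an unadjusted p under 0.05. Leaving out 1 array in turn gave 0 to 1176 higher and 0 to 1078 lower genes, with 0 of each without scramble array 1 or scramble array 2. Among 162 called genes named by the rule, none changed direction in any of these fits. Leaving out 1 array could not reverse them, since the arrays of all called genes did not overlap. The fits with the block, the trended variance, the weights, the filter or every named probe leave the change itself as it was. The unchanged directions in these fits were thus fixed in advance. All 162 lost their call with the block and without either scramble array, 15 with the trended variance, 20 with averaged probes, 7 with the filter and 16 without ERG shRNA array 2. With the background subtraction, their changes were 1.17 times as large in the median, with a range of 1.01 to 3.08, and with averaged probes the range was 0.291 to 1.27 times. Of the genes that had not passed, CEBPB went between -1.003 without ERG shRNA array 1 and 0.44 without array 2, and CHEK1 between -1.05 without array 2 and 0.39 without array 1. The cause of the other differences was not tested. The signal over background, which the deposited values do not give, limits the dim genes.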

Other observations

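Chromosomes gave uneven counts of calls among genes at or above the median level. On chromosome 13, 9 genes passed as higher with ERG shRNA and 1 as lower, with a median change of 0.13 over 169 genes. On chromosome 10, 15 of 363 were higher (4.13%) and 3 lower (0.826%), and on chromosome 16, where the metallothionein genes lie, 5 of 407 were higher (1.23%) and 21 lower (5.16%). Over all chromosomes the shares were 3.02% higher and 3.26% lower. The medians of the chromosomes lay between -0.03 and 0.13.

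Among the brightest steady genes was a probe named LAIR1, a receptor of leukocytes, at 15.11 and 15.26 with ERG shRNA against 15.17 and 15.13 with scramble. The 12 listed leukocyte markers had median levels of 7.62 and 7.62 in the ERG shRNA arrays, against 7.61 and 7.63 in the scramble arrays. Whether this probe reads LAIR1 mRNA was not tested.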
